A study of Mus musculus with 19 samples.

Results

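The genes described here are those of glycolysis, gluconeogenesis, lactate and fructose metabolism, together with the regulatory proteins of these routes, in the liver of mice with a defect of methylmalonyl-CoA mutase (*Mmut*). The members were taken from a written list of 36 gene symbols, chosen by function and matched to the gene symbols annotated to the array's probe sets, and 31 of them were analysed among 19505 named genes. *Gpi1*, *Pfkfb1*, *Pfkfb2*, *Eno1* and *Sord* carry no name in the probe annotation used and were not analysed here. Livers came from 9 control and 10 mutant mice, all C57BL/6N males at 20 weeks of age, given a protein-rich diet without restriction and no treatment, with 1 Clariom S array per mouse. Control mice (*Mmut*-ki/wt) had 1 wild-type allele and 1 knock-in allele (ki, MMUT-p.Met700Lys), and mutant mice (*Mmut*-ko/ki) had 1 knockout allele and the same knock-in allele, so the knock-in change is shared by both groups and the comparison is of a knockout against a wild-type second allele. The alleles are present in every tissue, so what a liver shows is not limited to events within hepatocytes, and only males were arrayed.

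Glycolysis splits glucose into pyruvate, and gluconeogenesis runs the reverse route in liver and kidney when food is scarce. Most steps are shared and reversible, while a few one-way steps have separate enzymes for each direction: phosphofructokinase against fructose bisphosphatase and pyruvate kinase against the pair pyruvate carboxylase and phosphoenolpyruvate carboxykinase. Hepatocytes use their own isozymes at several of these steps, and dietary fructose enters below phosphofructokinase through ketohexokinase. Genes for the sugar-consuming steps are known to be induced by insulin and by sugar, with sugar acting through the carbohydrate response element binding protein. Those for glucose production are known to be induced by fasting hormones.

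Among the 31 members, 5 passed limma's moderated test with Benjamini-Hochberg adjustment over all genes at 0.05, which is 16.1% of the members against 10.1% of all genes tested. Of these, 4 fell in the mutant livers: *Pklr* (liver and red cell pyruvate kinase), *Ldhd* (the mitochondrial D-lactate dehydrogenase), *Khk* (ketohexokinase) and *Gckr* (a regulatory protein of hepatic glucose phosphorylation). The remaining one, *Tpi1* (triosephosphate isomerase), rose. Across all genes 4.73% rose and 5.33% fell. The median difference of the members was -0.01 on the log2 scale and that of all genes 0.00, with 15 members higher and 16 lower in the mutants. For none of the 31 members were the 2 groups fully apart, a separation that 1.48% of all genes showed, 0.549% with the mutants lower and 0.933% with the mutants higher.

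The sequence before a transcription start is shown for the 5 members that passed, the genes the comparison turns on. Sugar-responsive elements are also known from the rodent *Pklr* promoter. Each run gives the 250 bases before an annotated RefSeq transcription start on mouse build GRCm38.p6, 5′ to 3′ on the strand of the gene. That start need not be the first base of the gene. The *Pklr* and *Gckr* runs lie inside the annotated gene, as does part of the *Khk* run. Capitals mark the E-box CACGTG, the TATA box motif TATAAA and the carbohydrate response element, searched by its usual form, a pair of E-box-like pieces with 5 bases between them. For *Pklr* the downstream of its annotated starts is printed, chr3:89136373-89136622 on the plus strand, followed by *Khk* (chr5:30921309-30921558, plus), *Ldhd* (chr8:111630337-111630586, minus), *Gckr* (chr5:31297313-31297562, plus) and *Tpi1* (chr6:124814159-124814408, minus).
Pklr: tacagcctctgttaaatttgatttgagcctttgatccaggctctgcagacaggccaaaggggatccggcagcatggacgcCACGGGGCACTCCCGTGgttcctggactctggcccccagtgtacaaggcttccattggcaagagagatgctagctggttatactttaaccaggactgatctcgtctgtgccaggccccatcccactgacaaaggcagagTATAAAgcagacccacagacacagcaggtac
Khk: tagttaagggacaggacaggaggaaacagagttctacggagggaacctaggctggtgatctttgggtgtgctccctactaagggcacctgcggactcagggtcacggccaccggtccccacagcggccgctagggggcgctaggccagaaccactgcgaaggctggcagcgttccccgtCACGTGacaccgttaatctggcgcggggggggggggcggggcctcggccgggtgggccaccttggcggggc
Ldhd: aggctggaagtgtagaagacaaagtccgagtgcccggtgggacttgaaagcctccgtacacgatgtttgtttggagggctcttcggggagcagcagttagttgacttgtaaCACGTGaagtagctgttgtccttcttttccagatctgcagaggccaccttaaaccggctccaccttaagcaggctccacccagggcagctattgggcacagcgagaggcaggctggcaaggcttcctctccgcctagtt
Gckr: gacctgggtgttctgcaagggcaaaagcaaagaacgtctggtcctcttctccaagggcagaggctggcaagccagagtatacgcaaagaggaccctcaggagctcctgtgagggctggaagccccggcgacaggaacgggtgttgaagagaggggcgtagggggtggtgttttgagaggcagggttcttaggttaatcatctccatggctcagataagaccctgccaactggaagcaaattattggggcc
Tpi1: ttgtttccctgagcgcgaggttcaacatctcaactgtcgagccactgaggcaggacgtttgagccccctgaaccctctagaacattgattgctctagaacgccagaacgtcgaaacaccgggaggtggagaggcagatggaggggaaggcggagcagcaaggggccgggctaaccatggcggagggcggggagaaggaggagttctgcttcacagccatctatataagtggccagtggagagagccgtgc

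Each of the 31 members matched at least 1 RefSeq promoter, giving 45 windows of 300 bases (250 before the start and 50 after), and motifs were searched on both strands. The *Pklr* window held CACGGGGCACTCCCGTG at 170 to 154 bases before the start and TATAAA at 31 to 26 bases before it. The form searched for the carbohydrate response element was added after the promoters had been read, and it matches this *Pklr* stretch. It was found in 15 of 32851 windows of the whole annotation (0.0457%) and in no other member. Because looser forms were not searched, these counts do not say how rare the element is. CACGTG, which can overlap that element, lay 71 to 66 bases before the start of *Khk* and 139 to 134 bases before that of *Ldhd*. It occurred in 8 of the 45 member windows (17.8%) against 7.15% of all windows, the genes being *Fbp2*, *G6pc3*, *Khk*, *Ldha*, *Ldhd*, *Pcx*, *Pfkfb3* and *Pfkm*, of which 2 passed the test. TATAAA stood in 13.6% of all windows and in those of *G6pc*, *Pklr* and *Slc37a4*. CCAAT stood in 37.4% of all windows and in 18 of the 45 member windows (40%), which belong to 16 of 31 members. The other letters searched, with their share of all windows, were TGACGTCA (1.79%, *Ldha*), TGTTTAC (3.65%, *Aldoc*) and AGGTCA repeated after any 1 base (0.0396%, no member). No capitals appear in the runs of *Gckr* and *Tpi1*, which says only that the motifs marked by capitals are not in that stretch. CCAAT was searched but not marked, and the *Gckr* run holds it on the opposite strand.

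The values were the authors' log2 signals after robust multi-array averaging, so differences are on the log2 scale throughout. *Mmut*, the targeted gene, was lower in every mutant than in any control, although the sources used here do not say whether its probes lie in the deleted part. It was between 12.80 and 13.53 in control livers and between 11.18 and 11.90 in mutant livers, so that *Mmut* fell by 1.66 on the log2 scale (SE 0.12, adjusted p = 5.28e-10, limma). The arrays were alike in scale, with median signals of 5.14 to 5.25 in controls and 5.19 to 5.25 in mutants. The percentage of probe sets detected (detection p under 0.05) was 68.0 to 72.7 in controls and 69.8 to 77.1 in mutants, the highest being mutant 1. Of the hepatocyte markers, 8 of 8 were detected on all arrays and 0 passed limma's test (0 at an unadjusted p under 0.05). *Alb* (albumin), *Apoa1*, *Ttr* and *Serpina1a* lay close to the highest log2 value in the table (19.93), where a difference may not show, so they say only that the tissue's markers are present. Of the others, *Hpd*, an enzyme of tyrosine breakdown, differed by -0.16 with 9 of 10 mutants below every control, *Cps1*, of the urea cycle, by -0.19 with 5 of 10 below, and *Fgb*, a fibrinogen chain, by -0.12 with 6 of 10 below. Their exact permutation p were 3.14e-04, 0.00611 and 0.00974, while limma, which raises the variance of such evenly measured genes, gave adjusted p of 0.30, 0.232 and 0.451. A probe set's signal depends on its probes, so levels are compared between arrays for the same gene and not between genes. In these whole-liver extracts, fewer cells of a type and less RNA per cell cannot be told apart.

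**Figure D1:**
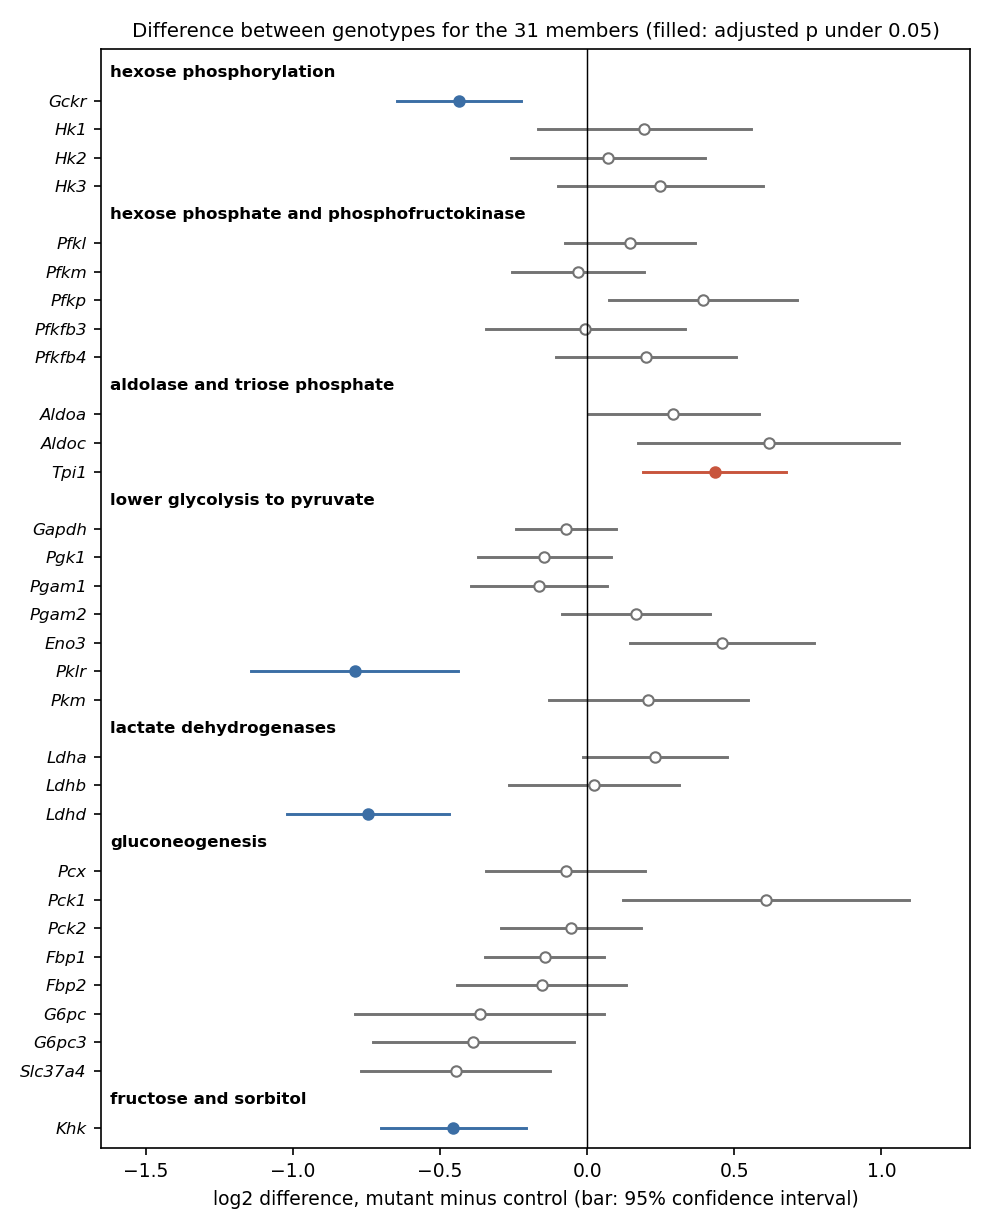
Log2 difference between mutant (n = 10) and control (n = 9) livers for the 31 members, grouped by role, with the horizontal axis as mutant minus control and bars for the 95% confidence interval. Filled points passed at an adjusted p under 0.05: *Gckr*, *Pklr*, *Ldhd* and *Khk* lie left of 0 and *Tpi1* right of it.

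At the entry of glucose, *Gckr*, which encodes a regulatory protein of glucose phosphorylation in hepatocytes, was lower in mutant livers. Its log2 signal ran from 12.74 through a median of 13.01 to 13.22 in the controls and from 12.17 through 12.61 to 12.78 in the mutants. The ranges overlapped only narrowly, and 8 of 10 mutants lay below every control. The means were 13.00 ± 0.15 (SD, n = 9) and 12.57 ± 0.18 (SD, n = 10), so that *Gckr* fell by 0.43 on the log2 scale (SE 0.10, adjusted p = 0.00563, limma), or 1.35-fold, and a two-sided exact permutation test over all 92378 splits of the arrays gave p = 5.41e-05. The hexokinases of other tissues did not pass. *Hk1*, the form of brain and red cells, differed by 0.19 (adjusted p = 0.575), and *Hk3*, a form of white blood cells, by 0.25 (adjusted p = 0.421). *Hk2*, the insulin-responsive form of muscle and fat, differed by 0.07 (adjusted p = 0.852) and was detected in 4 of 9 control and 8 of 10 mutant livers.

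At phosphofructokinase, the committing step of glycolysis, none of the 5 measured genes passed limma's test, where 10.1% of all genes did. An unadjusted p under 0.05 was reached by 1 of the 5. *Pfkl*, the liver subunit, was 7.34 to 7.77 with a median of 7.65 in controls and 7.49 to 8.21 with a median of 7.76 in mutants. The ranges overlapped in part, with 5 of 10 mutants above every control, and the difference was 0.15 (SE 0.11, 95% confidence interval -0.08 to 0.37, adjusted p = 0.468). The muscle subunit *Pfkm* differed by -0.03 (adjusted p = 0.916) and the platelet subunit *Pfkp* by 0.39 (adjusted p = 0.119). *Pfkfb3* and *Pfkfb4* encode the bifunctional enzymes that make and remove fructose bisphosphate's regulatory isomer, the strongest activator of phosphofructokinase. Their differences were -0.01 (adjusted p = 0.990) and 0.20 (adjusted p = 0.474).

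In the triose section the 3 measured genes all had higher means in mutants and 1 passed. *Tpi1*, which interconverts the pair of triose phosphates, ranged from 13.00 to 13.68 with a median of 13.49 in controls and from 13.36 to 14.10 with a median of 13.88 in mutants. Of the mutants, 8 of 10 were above every control, while the lowest mutant lay inside the control range. The means were 13.39 ± 0.23 (SD, n = 9) and 13.83 ± 0.23 (SD, n = 10), and *Tpi1* rose by 0.43 (SE 0.12, adjusted p = 0.0178, limma; 1.35-fold; exact permutation p = 9.09e-04). *Aldoc*, the brain aldolase, differed by 0.62 (adjusted p = 0.0706) on widely spread values, 7.31 to 8.54 in controls and 7.73 to 9.89 in mutants. Mutant 7 was the highest of these, and without it the difference was 0.45 (adjusted p = 0.0889). It passed in the absence of control 8 (0.71, adjusted p = 0.036) or mutant 3 (0.69, adjusted p = 0.0437). *Aldoa*, the muscle and general aldolase, differed by 0.29 (adjusted p = 0.221).

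In lower glycolysis, the terminal enzyme was the one that fell. *Pklr* makes pyruvate and ATP from phosphoenolpyruvate and is the form hepatocytes use. Its values ran from 11.74 through a median of 12.42 to 13.18 in controls and from 11.18 through 11.62 to 12.24 in mutants. The mutant median was below the lowest control and 6 of 10 mutants lay below every control. The means were 12.45 ± 0.43 (SD, n = 9) and 11.66 ± 0.37 (SD, n = 10). *Pklr* fell by 0.79 on the log2 scale (SE 0.17, adjusted p = 0.00282, limma), the largest difference of either sign among the members and a 1.73-fold lower signal, and the exact permutation p was 6.60e-04. By contrast, the paper saw no clear trend among glycolysis and gluconeogenesis genes on its arrays, and no change in *Pklr* by qRT-PCR. It describes both its array and its qRT-PCR samples as liver RNA from 9 control and 10 mutant fed males. The fall described here therefore rests on the array signal alone, and the reason for the disagreement was not tested. The muscle and general pyruvate kinase, *Pkm*, differed by 0.21 (adjusted p = 0.505), 95% confidence interval -0.13 to 0.55.

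The other steps between triose phosphate and phosphoenolpyruvate did not pass. *Gapdh*, the dehydrogenase of this section and a common reference gene, stayed between 17.75 and 17.82 in controls and between 17.52 and 17.78 in mutants. Although 6 of 10 mutants lay below every control, the difference was -0.07, with an adjusted p of 0.682 in limma and an exact permutation p of 0.0145. Its SD was 0.03 in controls and 0.09 in mutants, and limma, which draws the variance of each gene toward that of the others, gave the difference an SE of 0.08. *Pgk1*, the first ATP-forming kinase, differed by -0.15 (adjusted p = 0.477), the mutase *Pgam1* by -0.16 (adjusted p = 0.433) and the muscle mutase *Pgam2* by 0.17 (adjusted p = 0.462). *Eno3*, the muscle enolase, was detected in 4 of 9 control and 10 of 10 mutant livers and differed by 0.46 (adjusted p = 0.0557). It passed when control 5, 7 or 8 or mutant 8 was left out, with adjusted p of 0.0364, 0.037, 0.0437 and 0.0238.

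Among the lactate dehydrogenases, *Ldhd* had the smallest p of all members, at rank 415 among the 19505 genes. It oxidises D-lactate in mitochondria, a route distinct from that of the L-lactate enzymes. Control livers ranged from 10.99 through a median of 11.56 to 12.20 and mutant livers from 10.44 through 10.84 to 11.07. The highest mutant was only just above the lowest control, and 8 of 10 mutants lay below every control. With means of 11.57 ± 0.37 (SD, n = 9) and 10.82 ± 0.18 (SD, n = 10), *Ldhd* fell by 0.74 on the log2 scale (SE 0.13, adjusted p = 4.16e-04, limma; 1.67-fold; exact permutation p = 3.25e-05). *Ldha*, the L-lactate subunit that predominates in liver, differed by 0.23 (adjusted p = 0.259). *Ldhb*, the heart subunit, was detected in 7 of 9 control and 9 of 10 mutant livers and differed by 0.02 (adjusted p = 0.952), with a sign that turned under other scalings.

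For fructose, *Khk*, which phosphorylates fructose on its entry into hepatocytes, was lower in mutants. It was between 15.33 and 15.78 with a median of 15.58 in controls and between 14.72 and 15.53 with a median of 15.11 in mutants. The mutant group was the more widely spread, with 6 of 10 livers below every control and 4 within the control range. The means were 15.58 ± 0.15 (SD, n = 9) and 15.13 ± 0.30 (SD, n = 10), and *Khk* fell by 0.45 on the log2 scale (SE 0.12, adjusted p = 0.0141, limma; 1.37-fold; exact permutation p = 8.55e-04). *Khk* and *Gckr* are on the same chromosome, 366 kb apart on chromosome 5 (GRCm38.p6), with 23 annotated genes between them. Of the 21 of these that were measured, 1 fell and 1 rose.

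**Figure D2:**
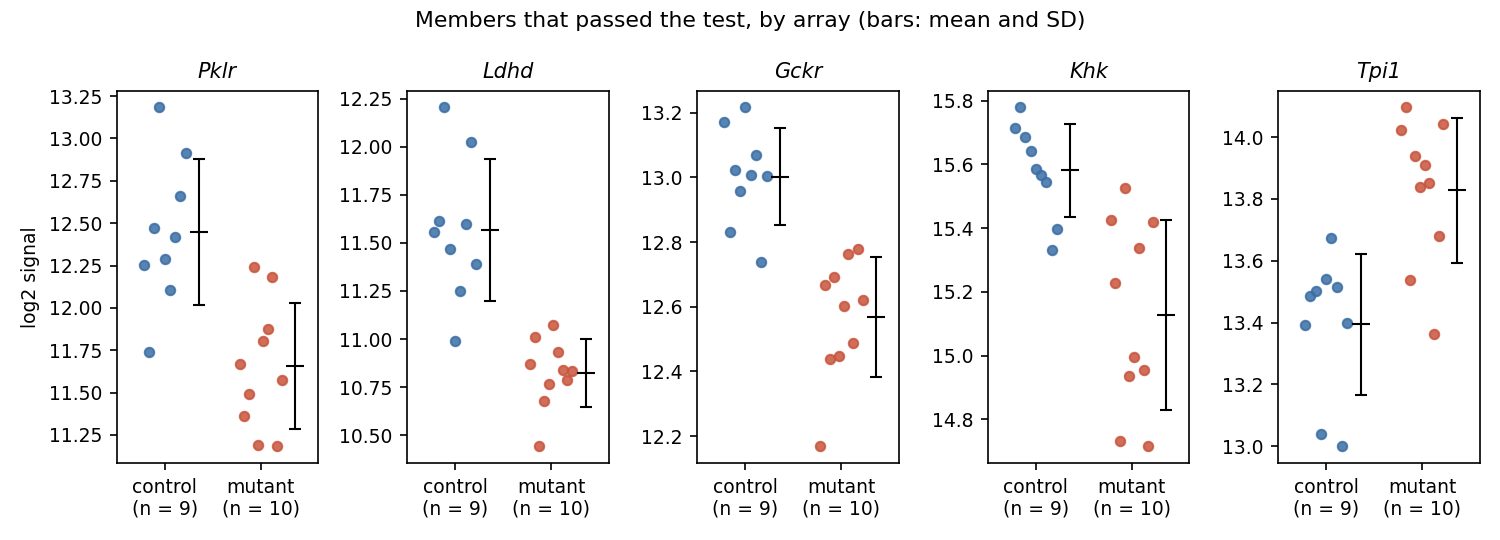
Log2 signal of the 5 members that passed, with 1 point per liver for 9 controls and 10 mutants and bars for the mean and SD. The mutants lie lower for *Ldhd*, *Pklr*, *Gckr* and *Khk* and higher for *Tpi1*, and in every panel at least 2 of the 10 mutants fall within the control range.

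No gluconeogenic member passed: 0 rose and 0 fell of 8 measured, where 10.1% of all genes passed. Lower means in mutants were seen for 7 of 8, with a median difference of -0.15. An unadjusted p under 0.05 was reached by 3 of the 8, against 4346 of all 19505 genes. With limma's trend and robust fitting 1 of these 3, *Slc37a4*, passed. The exception in sign was *Pck1*, the cytosolic phosphoenolpyruvate carboxykinase. It ran from 15.84 through a median of 16.51 to 17.29 in controls and from 15.97 through 17.32 to 18.50 in mutants. The mutants began near the bottom of the control range and extended well past its top, and 6 of 10 were above every control. The means were 16.57 ± 0.41 (SD, n = 9) and 17.18 ± 0.71 (SD, n = 10), a difference of 0.61 (SE 0.24, 95% confidence interval 0.12 to 1.09, adjusted p = 0.112, limma; exact permutation p = 0.0364). The call depended on a single liver: without mutant 7, the lowest of the mutants, the difference was 0.74 and the adjusted p 0.0268. By qRT-PCR, the paper reported no change in *Pck1* expression between the genotypes.

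The steps that release glucose had lower means. *G6pc*, the catalytic subunit of glucose-6-phosphatase in liver, was 17.04 to 18.33 with a median of 17.48 in controls and 15.98 to 17.88 with a median of 17.32 in mutants. The ranges overlapped in part, with 4 of 10 mutants below every control, and the difference was -0.37 (SE 0.21, 95% confidence interval -0.79 to 0.06, adjusted p = 0.310; exact permutation p = 0.131). Without mutant 7, the lowest of the mutants, it was -0.23 (adjusted p = 0.493). *Slc37a4*, which carries glucose phosphate into the endoplasmic reticulum for that enzyme, was 12.80 to 13.90 with a median of 13.36 in controls and 12.21 to 13.42 with a median of 12.88 in mutants. Its difference was -0.45 (SE 0.16, adjusted p = 0.0718; exact permutation p = 0.014), and 4 of 10 mutants were lower than all controls. It passed without control 1, 6 or 7 or mutant 7, with adjusted p of 0.0415, 0.0493, 0.041 and 0.0319. *G6pc3*, the catalytic subunit of other tissues, differed by -0.39 (adjusted p = 0.156), and without mutant 5, its highest mutant, by -0.49 (adjusted p = 0.032).

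*Fbp1*, the fructose bisphosphatase of liver, was 16.96 to 17.49 with a median of 17.13 in controls and 16.75 to 17.21 with a median of 17.03 in mutants. The difference of -0.14 (SE 0.10, 95% confidence interval -0.35 to 0.06, adjusted p = 0.424; exact permutation p = 0.0587) was smaller than the SD of either group (0.16 and 0.15). *Fbp2*, the muscle form, was detected in 0 of 9 control and 1 of 10 mutant livers and had no usable level. *Pcx*, the mitochondrial pyruvate carboxylase that starts the pathway, differed by -0.07 (adjusted p = 0.812), and *Pck2*, the mitochondrial carboxykinase, by -0.05 (adjusted p = 0.844).

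**Figure D3:**
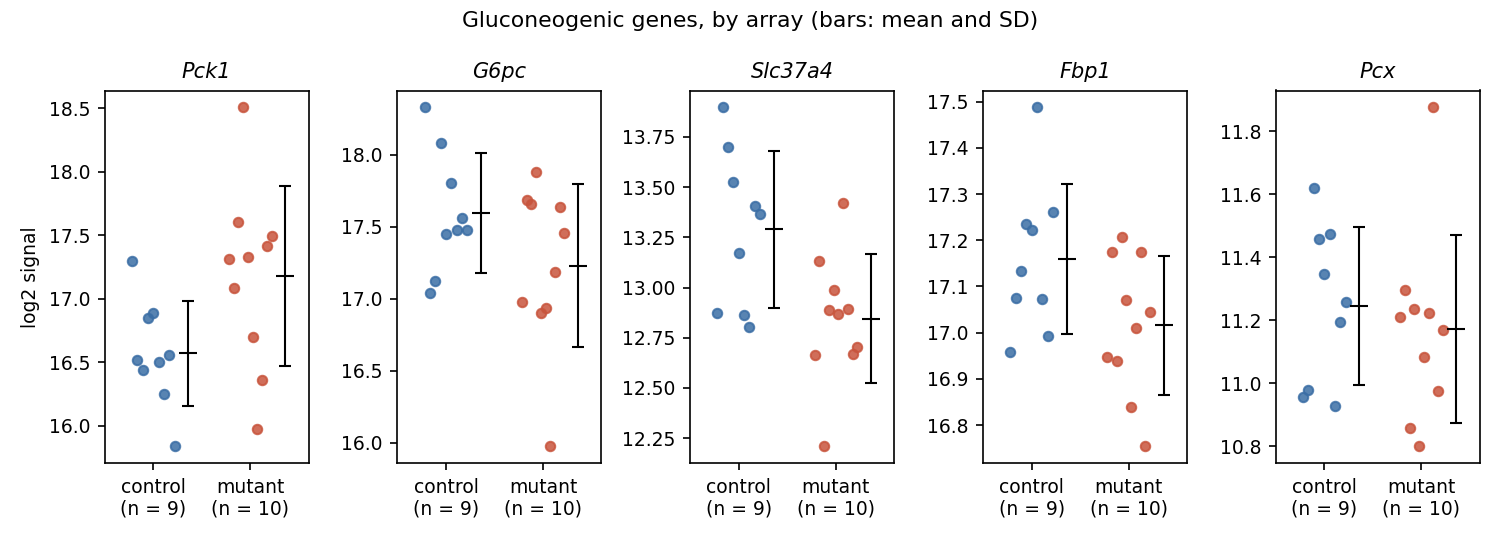
Log2 signal of 5 gluconeogenic members in 9 control and 10 mutant livers, with 1 point per liver, bars for the mean and SD, and a separate vertical scale for each gene. *Pck1* reached 18.50 in the mutants against 17.29 in the controls, *G6pc* reached down to 15.98 in 1 mutant, and none of the 5 genes passed the test.

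Within each genotype, 6 pairs of members were compared, giving 12 relations, and none passed Benjamini-Hochberg adjustment. *Pck1* and *G6pc*, an early and the final enzyme of glucose production, had the strongest positive relation. In mutant livers Pearson's r was 0.772 (n = 10, permutation p = 0.0105, adjusted p = 0.126) and Spearman's rho 0.661 (permutation p = 0.0441, adjusted p = 0.369). In control livers r was 0.596 (n = 9, exact permutation p = 0.0876, adjusted p = 0.329) and rho 0.4 (exact permutation p = 0.291, adjusted p = 0.658). Leaving out the 2 livers farthest from the median of *Pck1* gave r of 0.397 in mutants and 0.424 in controls, on a narrower range of *Pck1*. Mutant 7 was the lowest mutant for both genes, and without it alone r was 0.61 (permutation p = 0.0754, adjusted p = 0.439). *G6pc* and *Slc37a4* had r of -0.573 in controls (exact permutation p = 0.11, adjusted p = 0.329, rho -0.433 with p = 0.25, -0.833 without the 2 farthest livers) and -0.585 in mutants (permutation p = 0.0836, adjusted p = 0.329, rho -0.297 with p = 0.409, -0.314 without them), with an adjusted p of 0.658 for both rho. *Pklr* and *Khk* had r of -0.504 in controls (exact permutation p = 0.166, rho -0.5 with p = 0.178) and 0.467 in mutants (permutation p = 0.174, rho 0.624 with p = 0.0614), both with an adjusted p of 0.348 for r, and -0.688 and 0.547 without the 2 farthest livers. The remaining 6 relations, of *Pck1* with *Fbp1*, *Pklr* with *Gckr* and *Hk2* with *Pfkfb3*, had r between -0.304 and 0.12, with an adjusted p of 0.727 or more.

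**Figure D4:**
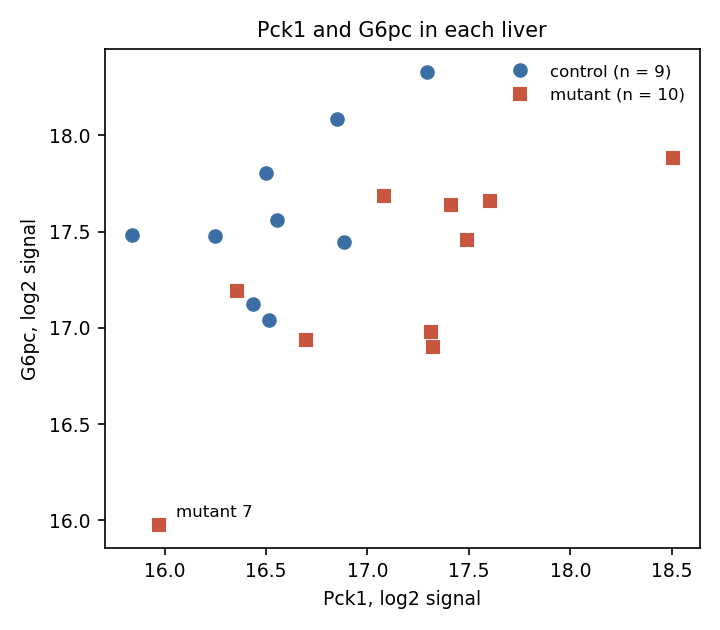
*G6pc* (vertical) against *Pck1* (horizontal), both as log2 signal, in 9 control livers (circles) and 10 mutant livers (squares). Mutant 7 stands alone at the lower left with 15.97 for *Pck1* and 15.98 for *G6pc*, and the other mutants lie mostly to the right of the controls.

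Sorted by where each isozyme predominates, the hepatocyte forms and the other forms had median differences of opposite sign. Of the 10 measured hepatocyte forms, 3 fell (*Gckr*, *Pklr* and *Khk*) and 0 rose, with a median difference of -0.25 and 7 of 10 lower in mutants. Across all genes 5.33% fell and 4.73% rose. Of the 15 forms of other tissues, 0 fell and 0 rose, the median difference was 0.19 and 11 of 15 were higher in mutants, with 5 at an unadjusted p under 0.05 and 1 called by the Wilcoxon test (*Aldoc*). Of these 15, 11 were detected on all arrays, and *Fbp2* had no usable level. Most of the 15 had control means under 7, where small differences are less certain. The difference between these sets was not tested, and the lists were chosen with earlier results of these data known. Of the 26 members that did not pass, 14 had a 95% confidence interval that stayed within 0.5 of 0 on the log2 scale in both directions, and for the other 12 a difference of that size was within the interval. At an unadjusted p under 0.05 stood 12 of the 31 members, 7 of them among those that did not pass, against 4346 of the 19505 genes.

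Across the arrays, no liver carried the differences alone. Mutant 6 was the highest mutant for 9 of 31 members, and mutant 7 the lowest for 6 and the highest for 5. For the 5 members that passed, the most extreme mutant was mutant 1 for *Gckr*, mutant 2 for *Tpi1*, mutant 3 for *Ldhd* and mutant 9 for *Pklr* and *Khk*. With control 1 and mutant 1 left out together, an alternative chosen after seeing the data because the first correlated least with its group and the second had the most probe sets detected, the count stayed at 4 that fell and 1 that rose.

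**Figure D5:**
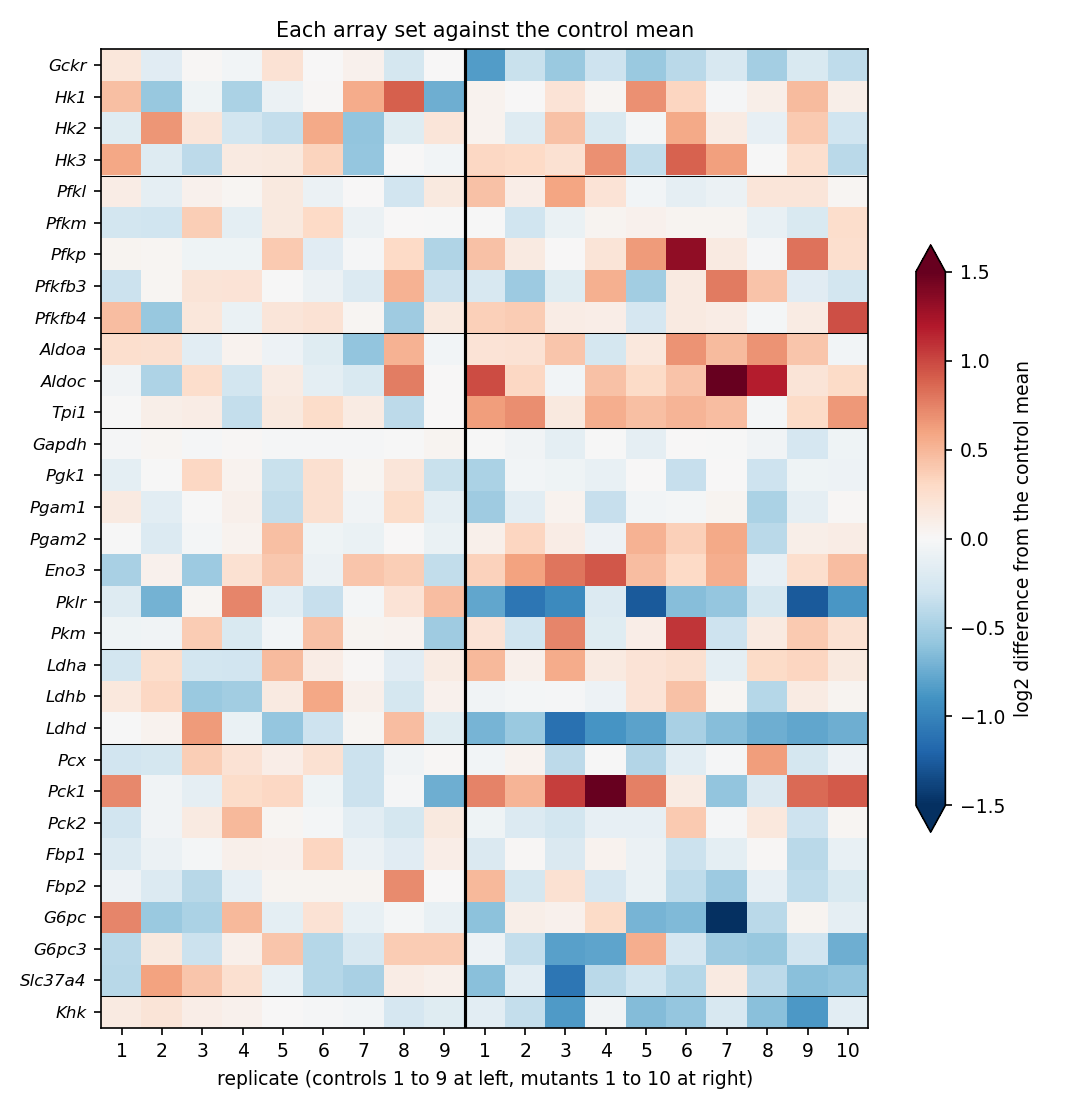
Log2 difference of each array from the control mean for the 31 members, with controls 1 to 9 at the left, mutants 1 to 10 at the right, and blue for lower and red for higher. *Gckr* and *Ldhd* are blue in all 10 mutants and *Pklr* and *Khk* in all 10 as well, with lighter shades in mutant 4, whereas *Pck1* is red in 8 of 10 and *G6pc* is darkest in mutant 7.

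Other genes of carbohydrate metabolism were read from lists grouped by function, which were chosen with earlier results of these data known. For the counts in the lists here and below, 4.73% of all genes rose and 5.33% fell. Of 13 measured enzymes of hexose, fructose and glycerol handling, 1 rose and 2 fell. *Gpd1*, the cytosolic glycerol phosphate dehydrogenase that draws on the triose pool, rose by 0.56 (adjusted p = 0.00401), with 12.16 to 13.23 in controls and 12.89 to 13.34 in mutants. *Gpd2*, its mitochondrial partner, fell by 0.48 (adjusted p = 0.0408), a call that was lost in 15 of 30 alternatives, and *Gapdhs*, the sperm form of *Gapdh*, was detected in 1 of 9 controls and 1 of 10 mutants. Of 3 galactose enzymes, *Galt*, the uridylyltransferase of that route, fell by 0.63 (adjusted p = 0.00236), and 9 of the 10 mutant livers were lower than the lowest control. Of 6 pentose phosphate enzymes, the epimerase *Rpe* fell by 0.45 (adjusted p = 0.0144) and the other 5 did not pass. Of 5 genes for pyruvate and lactate transport, *Slc16a7*, a monocarboxylate transporter with high affinity for pyruvate, rose by 1.93 (SE 0.15, adjusted p = 1.59e-09), or 3.81-fold. It was between 11.29 and 12.27 in controls and between 13.11 and 14.22 in mutants, so here the groups did not overlap.

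Of the measured regulators, 7 belong to glucose-responsive transcription. In this list 2 fell, *Mlx*, the obligate partner of the carbohydrate response element binding protein, by 0.60 (adjusted p = 0.00561) and *Nr1h3*, the liver X receptor alpha, by 0.51 (adjusted p = 0.0136). *Mlxipl*, which encodes that binding protein and was named after its value was seen, differed by -0.31 (adjusted p = 0.119). Of 11 fasting-responsive regulators, 2 rose: *Ppargc1a*, a coactivator of gluconeogenic genes, by 1.03 (adjusted p = 0.0186) and past the highest control in 7 mutant livers, and *Cebpb*, a hormone-responsive transcription factor, by 0.44 (adjusted p = 0.0389), a call lost in 14 of 30 alternatives. Of 6 genes of hypoxia and growth, *Myc*, a growth-promoting transcription factor, rose by 1.51 (adjusted p = 0.0236) on values of 5.19 to 7.74 in controls and 5.25 to 9.90 in mutants. The oxygen sensor *Egln1* rose by 0.44 (adjusted p = 0.0263), and *Vhl*, which marks hypoxia-inducible factors for breakdown, fell by 0.52 (adjusted p = 0.00891).

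Markers of other cells were read beside these values. Of 8 Kupffer cell and macrophage markers, all detected on every array, 4 rose (*Adgre1*, *Clec4f*, *Vsig4* and *Cd5l*), 0 fell and the median difference was 0.53, with a summed log2 level of 12.2 to 13.1 in controls and 12.6 to 14.3 in mutants. Of 6 periportal hepatocyte markers 1 rose and 2 fell (median -0.34), and of 9 pericentral markers 0 rose and 3 fell (median -0.25). Skeletal muscle (8), adipocyte (6), exocrine pancreas (6) and neutrophil (7) markers gave no call in limma (2, 0, 1 and 0 at an unadjusted p under 0.05), although 1 exocrine pancreas marker rose when only genes detected on at least 9 arrays were tested. Detected on no array were *Myh4*, *Adipoq*, *Lep*, *Ctrb1*, *Ngp* and *Camp*. In the remaining lists 1 of 7 lymphocyte, 1 of 8 stellate cell, 1 of 6 cholangiocyte (*Krt19* detected on no array) and 1 of 2 erythroid markers fell, and 1 of 8 sinusoidal endothelial and 1 of 5 proliferation markers rose. The part of these cell types in the members' differences was not tested.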

How the data were processed

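Total RNA of 19 livers was amplified, biotin-labelled and hybridised to Clariom S mouse arrays, 1 array per mouse. The authors summarised and normalised the signals by SST-RMA in the Transcriptome Analysis Console, and the deposited table holds log2 values with a detection p-value for each probe set and array. The separately deposited series matrix values differed from these by at most 0.0005 on the log2 scale. Of 22206 probe sets, 19572 had 1 gene symbol in the platform annotation, 0 several and 2634 none, and where a gene had more than 1 (55 genes), its brightest probe set over all arrays was kept.

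All 19505 genes were fitted with limma 3.58.1 (lmFit and eBayes, genotype only, two-sided, R 4.3.3) and p-values adjusted by Benjamini-Hochberg. No filter on signal was applied. Scripts were tested on simulated data. Exact permutation tests and correlations (100000 resamples for 10 livers) were run in Python 3.11.15 with numpy 2.4.6. SD is over mice. The labels call the mice biological replicates, and the number of arrays, not a read depth, limits the precision. Same-numbered mice were not treated as pairs in the main fit.

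The alternatives were limma with trend and robust fitting, the methods' t-test and Wilcoxon test, the series matrix values, median centring, quantile normalisation, a filter on detection, array weights, the mean over probe sets, a replicate block and each array left out. The members and lists were chosen with earlier results of these data known. Values are given in full for members that passed and for *Gckr*, *Pfkl*, *Pklr*, *Pck1*, *Fbp1*, *G6pc* and *Khk*, and from other lists for genes that passed, at most 4 per list. *Slc37a4*, *Aldoc*, *Gapdh* and *Eno3* were described more fully after their values were seen. Promoter sequences are RefSeq's, on GRCm38.p6. Some genes of these routes are not reported here.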

Additional observations from a re-analysis of the deposited data

Results flagged for a closer look

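Of 62 groups of values (31 members in each genotype), 5 held a liver set apart from the rest of its group by Dixon's criterion, which chance gives in about 1 in 20 groups. For *G6pc*, mutant 7 was the lowest at 15.976, with the next mutant at 16.901. For *Pcx*, mutant 8 was the highest at 11.875, with the next at 11.295. *Pfkfb4* was highest in mutant 10 at 6.39, with the next mutant at 5.81. *Pgam2* was highest in control 5 at 4.718, with the next control at 4.322. *Fbp2* was highest in control 8 at 4.139, where it was not detected, with the next control at 3.478. None of these genes passed the test, and for none of them did leaving out the named liver give a call.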

How the results depend on the processing

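The 5 members that passed kept their call and direction in all 30 alternatives, with 5 to 7 members called in each. The count that rose, 1, became 2 with the methods' Wilcoxon test (*Aldoc*) and 2 with the filter on genes detected on at least 9 arrays (*Eno3*), which left 14106 genes, and lay between 1 and 3 with single arrays left out. With that filter 1 galactose enzyme and 1 exocrine pancreas marker also rose, and 1 instead of 2 of the hexose, fructose and glycerol enzymes fell. The count that fell, 4, was 5 with trend and robust fitting and with median centring (*Slc37a4* in both) and 4 to 5 with single arrays left out. Differences near 0 changed sign: *Ldhb* was -0.0114 with median centring and -0.0038 with quantile normalisation. Leaving out single arrays moved *Pfkfb3* between -0.0936 and 0.0586, *Ldhb* between -0.046 and 0.0964, *Hk2* between -0.0025 and 0.154, *Pfkm* between -0.0674 and 0.0158 and *Pck2* between -0.105 and 0.0061. Weak correlations also turned: *Hk2* with *Pfkfb3* was 0.054 in controls and -0.007 in mutants after quantile normalisation, and -0.212 to 0.122 and -0.098 to 0.219 with single arrays left out. The same ranges were -0.394 to 0.004 and -0.263 to 0.321 for *Pck1* with *Fbp1*, and -0.465 to 0.073 and -0.129 to 0.25 for *Pklr* with *Gckr*. The cause of these changes was not tested.

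The replicate block used the 9 numbers that both groups share. Deviations of same-numbered mice from their group means correlated at -0.09 to 0.06 over all genes. Nothing in the labels says that equal numbers pair mice. These correlations cannot decide it, because a link that acts on few genes would hardly move them. With the block, the 5 calls remained (*Pklr* -0.78, *Ldhd* -0.74, *Khk* -0.49, *Gckr* -0.44 and *Tpi1* 0.41) and *Pfkfb3* was 0.0246. The counts over all genes were 717 that rose and 771 that fell, against 923 and 1039 without it. *Nr1h3* (adjusted p = 0.0692), *Egln1* (0.0644), *Gpd2* (0.101), *Cebpb* (0.106) and *Adgre1* (0.0774) were not called with the block. *Egln1* also missed the threshold without control 3 or 8 or mutant 9. Of the macrophage markers, *Vsig4* kept its call in all 30 alternatives, while *Adgre1* lost it in 6, *Clec4f* in 2 and *Cd5l* in 11. *Ppargc1a* missed the threshold with the methods' t-test (adjusted p = 0.0668), and *Myc* missed it with that test (0.0766), the Wilcoxon test (0.07) and trend and robust fitting (0.0694).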
